A study of Mus musculus with 44 samples.

Results

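The chromatin around 8 genes was examined in mouse embryos that lacked Oct4 (gene *Pou5f1*) or Sox2. Of these, 7 genes write, maintain or remove DNA methylation, namely *Dnmt1*, *Uhrf1*, *Dnmt3a*, *Dnmt3b*, *Dnmt3l*, *Tet1* and *Tet2*. The other is *Sap30*, a subunit gene of the Sin3 histone deacetylase complex. Every ATAC-seq peak that overlapped the gene record or the 10 kb on either side of it was taken, which gave 139 of the 152393 peaks. *Dnmt1* had 16 peaks, *Uhrf1* 10, *Dnmt3a* 29, *Dnmt3b* 7, *Dnmt3l* 14, *Tet1* 31, *Tet2* 28 and *Sap30* 4. By annotation 83 of the 139 lay in introns, 16 upstream, 16 downstream, 11 at an annotated start site, 5 in untranslated regions, 5 in coding exons and 3 in exons of non-coding transcripts.

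ATAC-seq measures how often the transposase Tn5 inserts into open chromatin. Each value is the authors' rlog value, a log2-scale measure of the Tn5 insertions in a 200 bp window, so a difference of 1 stands for a doubling. The 44 libraries fall into 12 groups. In the *Pou5f1* line, Ctrl and *Pou5f1*-KO embryos were taken as morulae at E2.75 and late morulae at E3.25 with 3 libraries each, and as early ICM at E3.75 and late ICM at E4.5 with 4 libraries each. In the *Sox2* line, Ctrl and *Sox2*-KO early and late ICMs had 4 libraries each. The ICM, or inner cell mass, is the part of the blastocyst that forms the embryo proper and the yolk sac endoderm. Each library pooled 20 to 40 morulae or ICMs of B6C3F1 background from superovulated females, so a replicate is a pool and not an animal. In every group, Ctrl included, Zp3-Cre had removed the floxed maternal copy of the targeted gene in the oocyte. Ctrl embryos kept an intact paternal copy. KO embryos had received a deleted allele from the father too, marked by the mKO2 reporter in the *Pou5f1* line and by the EGFP reporter in the *Sox2* line. Embryos used for ICMs were cultured from E2.5 with 1 μM PD0325901, an inhibitor of MEK that holds back primitive endoderm, and the ICMs were freed by immunosurgery. ICM and morula therefore differ in tissue and culture as well as in stage.

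DNA methylation sits on the cytosine of CG dinucleotides. Dnmt1, guided by Uhrf1, copies it to the new strand after replication, whereas Dnmt3a and Dnmt3b place it anew with the help of the inactive relative Dnmt3l. Tet1 and Tet2 oxidize methylcytosine and so start its removal. The preimplantation embryo is known for a genome-wide loss of this mark, followed by its return around implantation. Sap30 helps to hold the Sin3 complex together, which brings the deacetylases Hdac1 and Hdac2 to chromatin.

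Peaks are named by the distance of their centre from the 5′ end of the gene record in kb, with a minus sign for upstream. The sequences of the 6 peaks that passed the test in late ICM of both knockouts are shown first, since they carry the shared response. Those of the *Uhrf1* start site and of the *Tet1* peak with the largest fall in *Pou5f1*-KO late ICM follow, since they were called in *Pou5f1*-KO and not in *Sox2*-KO. The last pair comes closest to the composite OCT-SOX word among the 139. This word is the SOX word CATTGT, any base, and the OCT word ATGCAAAT. All are GRCm38 (mm10) sequence on the plus strand, 5′ to 3′. Capitals mark the stretch, on either strand, that has the fewest mismatches to the 14 fixed letters of the composite word, and the number of mismatches is given.

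*Uhrf1* −2.47 kb, chr17:56300754-56300953, 4 mismatches: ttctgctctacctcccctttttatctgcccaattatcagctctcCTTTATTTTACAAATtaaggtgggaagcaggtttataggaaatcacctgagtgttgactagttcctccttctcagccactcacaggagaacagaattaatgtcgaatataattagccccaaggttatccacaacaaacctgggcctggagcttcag

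*Sap30* −1.73 kb, chr8:57489488-57489687, 5 mismatches: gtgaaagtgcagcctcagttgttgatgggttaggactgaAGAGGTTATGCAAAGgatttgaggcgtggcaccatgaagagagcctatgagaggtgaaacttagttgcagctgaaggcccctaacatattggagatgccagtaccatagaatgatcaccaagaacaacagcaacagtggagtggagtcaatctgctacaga

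*Sap30* −2.31 kb, chr8:57490070-57490269, 4 mismatches: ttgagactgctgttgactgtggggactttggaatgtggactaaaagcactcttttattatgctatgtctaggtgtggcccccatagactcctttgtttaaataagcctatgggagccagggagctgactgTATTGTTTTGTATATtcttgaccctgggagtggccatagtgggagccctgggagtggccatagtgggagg

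*Tet2* +20.2 kb, chr3:133524856-133525055, 5 mismatches: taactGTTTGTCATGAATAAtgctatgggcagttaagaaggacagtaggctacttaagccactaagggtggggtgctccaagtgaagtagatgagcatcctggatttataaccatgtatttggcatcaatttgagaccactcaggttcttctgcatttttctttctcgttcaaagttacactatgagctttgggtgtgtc

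*Dnmt3a* +72.4 kb, chr12:3878275-3878474, 5 mismatches: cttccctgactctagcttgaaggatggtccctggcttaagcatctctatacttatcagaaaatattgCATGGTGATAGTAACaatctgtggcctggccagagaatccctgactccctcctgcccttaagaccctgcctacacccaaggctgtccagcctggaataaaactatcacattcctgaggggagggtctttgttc

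*Dnmt3b* +7.73 kb, chr2:153657082-153657281, 5 mismatches: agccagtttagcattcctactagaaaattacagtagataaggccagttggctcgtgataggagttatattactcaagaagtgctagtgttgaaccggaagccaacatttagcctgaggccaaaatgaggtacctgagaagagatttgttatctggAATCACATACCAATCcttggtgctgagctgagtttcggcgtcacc

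*Uhrf1* −0.048 kb, chr17:56303174-56303373, 5 mismatches: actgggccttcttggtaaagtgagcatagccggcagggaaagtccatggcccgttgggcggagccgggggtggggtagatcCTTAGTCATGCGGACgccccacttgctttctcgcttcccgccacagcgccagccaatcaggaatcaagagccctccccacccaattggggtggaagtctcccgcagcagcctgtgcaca

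*Tet1* +13.3 kb, chr10:62895552-62895751, 5 mismatches: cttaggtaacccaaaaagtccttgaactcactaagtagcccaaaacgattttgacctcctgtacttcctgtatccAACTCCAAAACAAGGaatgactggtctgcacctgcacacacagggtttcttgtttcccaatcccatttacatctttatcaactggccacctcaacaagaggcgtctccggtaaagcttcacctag

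*Dnmt3l* +6.39 kb, chr10:78048243-78048442, 2 mismatches: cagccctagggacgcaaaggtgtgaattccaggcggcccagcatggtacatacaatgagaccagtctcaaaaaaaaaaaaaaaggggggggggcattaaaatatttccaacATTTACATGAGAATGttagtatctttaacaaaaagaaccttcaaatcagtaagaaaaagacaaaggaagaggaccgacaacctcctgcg

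*Tet2* +59.9 kb, chr3:133485170-133485369, 3 mismatches: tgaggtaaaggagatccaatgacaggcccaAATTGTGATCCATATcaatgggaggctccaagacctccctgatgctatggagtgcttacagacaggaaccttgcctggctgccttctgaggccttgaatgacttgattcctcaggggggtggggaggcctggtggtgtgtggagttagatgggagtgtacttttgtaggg

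Stretches this far from the word were common. A stretch with at most 5 mismatches occurred in 52.2% of all peaks, with at most 4 in 14.1% and with at most 3 in 3.11%. Among the 139 peaks these shares were 48.9%, 10.1% and 1.44%. The OCT word was present in 2.16% of the 139 and in 2.39% of all peaks, the SOX word in 5.04% and 10.9%, and a KLF word (GGGTGTGG or GGGCGTGG) in 14.4% and 13.7%, on either strand. Of the 15 peaks that fell in *Pou5f1*-KO late ICM, 13 (86.7%) had a stretch with at most 5 mismatches and 3 (20.0%) one with at most 4, and of the 14 that rose the shares were 64.3% and 14.3%. None of the 15 held the OCT word, the SOX word or a composite stretch with at most 3 mismatches. These letters were absent from the windows, which says nothing about binding of the factors. Base composition was near that of all peaks, with a median GC content of 50.5% against 50% and a median of 2 CG dinucleotides per window in both. The start site window of *Uhrf1* held 10 CG dinucleotides and a GC content of 62%.

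The libraries were alike in scale, with a median rlog over all peaks between 2.35 and 2.63. In the *Sox2* line, a peak just upstream of *Sox2* lay between 0.489 and 1.19 in the KO libraries and between 1.96 and 3.28 in Ctrl. The study's methods place one loxP site farther upstream and the other in the 3′ untranslated region, so this peak lies in the deleted part and checks the labels only. No such peak was used for the *Pou5f1* line. Marker genes were checked through the mean rlog of the peaks near each gene, averaged over the genes of a list. The epiblast list (*Nanog*, *Sox2*, *Utf1*, *Tdgf1*, *Fgf4* and *Gdf3*, 56 peaks) lay between 3.54 and 3.96 in *Pou5f1* Ctrl late ICM and between 2.574 and 2.754 in *Pou5f1*-KO, with 27 peaks lower and 1 higher. In late ICM of the *Sox2* line it lay between 3.749 and 4.001 in Ctrl and between 3.15 and 3.33 in KO, with 16 lower and 1 higher. The list holds the deleted *Sox2* locus. Its other 5 genes (50 peaks) were taken as a plain mean over peaks, so their levels do not compare directly with those of the list. In late ICM they lay between 3.66 and 4.003 in *Pou5f1* Ctrl and between 2.82 and 2.99 in *Pou5f1*-KO. In the *Sox2* line they lay between 3.93 and 4.17 in Ctrl and between 3.248 and 3.47 in KO. Of their peaks 23 were lower and 1 higher in *Pou5f1*-KO, and 14 and 1 in *Sox2*-KO. The trophectoderm list (7 genes, 86 peaks) lay between 3.40 and 3.58 in *Pou5f1* Ctrl, 3.36 and 3.77 in *Pou5f1*-KO, 3.27 and 3.44 in *Sox2* Ctrl, and 3.67 and 3.81 in *Sox2*-KO late ICM. Its calls were 8 lower and 10 higher in *Pou5f1*-KO and 2 and 6 in *Sox2*-KO. The primitive endoderm list (5 genes, 41 peaks) lay between 2.762 and 3.05 in *Pou5f1* Ctrl, 2.41 and 2.761 in *Pou5f1*-KO, 3.06 and 3.19 in *Sox2* Ctrl, and 2.82 and 3.15 in *Sox2*-KO late ICM, with 4 lower and 3 higher in *Pou5f1*-KO and 1 and 1 in *Sox2*-KO. In late ICM the libraries of KO and Ctrl did not overlap for the epiblast list in either line, for the trophectoderm list (higher) in *Sox2*-KO and, with hardly a gap, for the primitive endoderm list (lower) in *Pou5f1*-KO. In *Pou5f1*-KO early ICM the epiblast list (2.73 to 2.94 against 3.48 to 3.696 in Ctrl, 15 peaks lower and 0 higher) and the primitive endoderm list (2.46 to 2.87 against 2.95 to 3.253, 5 lower and 0 higher) were also lower without overlap. The trophectoderm list was lower without overlap in *Pou5f1*-KO morulae (2.91 to 3.002 against 3.11 to 3.22, with no peak called) and late morulae (3.31 to 3.53 against 3.54 to 3.63, 1 lower and 0 higher). All other KO and Ctrl ranges of the 3 lists overlapped, those of *Sox2* early ICM included. The part of these lists in the results below was not tested. In pooled ICMs a loss of open epiblast cells and a loss of accessibility in each cell cannot be told apart.

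A peak was called lower or higher at an adjusted p-value under 0.05 (limma on all 44 libraries, Benjamini-Hochberg over all 152393 peaks). In *Pou5f1*-KO late ICM, 15 of the 139 peaks were lower and 14 higher. Over all peaks 10.1% were lower and 8.19% higher, and the shares of the 139, 10.8% and 10.1%, were near that background. Without 1 library the higher count was 7 to 13, namely 9 without Ctrl replicate 2 or 3, 8 without Ctrl replicate 4 or KO replicate 3 and 7 without KO replicate 4, while the lower count was 12 to 15. In *Pou5f1*-KO early ICM 12 were lower and 3 higher, against 5.43% and 2.753% of all peaks, with 5 higher without KO replicate 1. In *Sox2*-KO late ICM 5 were lower and 6 higher, against 4.88% and 2.71%. The higher count was 3 without Ctrl replicate 1, up to 7 without another library and 10 in a fit of only the libraries compared. In *Sox2*-KO early ICM the −2.47 kb peak of *Uhrf1* was lower and none was higher, against 1.91% and 0.238%, while 8 lower and 9 higher had an unadjusted p under 0.05 in limma. Without KO replicate 2, 2 were lower there, and with the replicate number as a block 2 were lower too. Of the 139 peaks, 40 (28.8%) were called in at least 1 of the 6 comparisons, against 24.5% of all peaks, and 99 in none. Calls in late ICM of either knockout were all in the higher direction at *Dnmt3a*, *Dnmt3b* and *Dnmt3l* and all in the lower direction at *Sap30*, and fell to both sides at the other 4 genes.

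**Figure D1:**
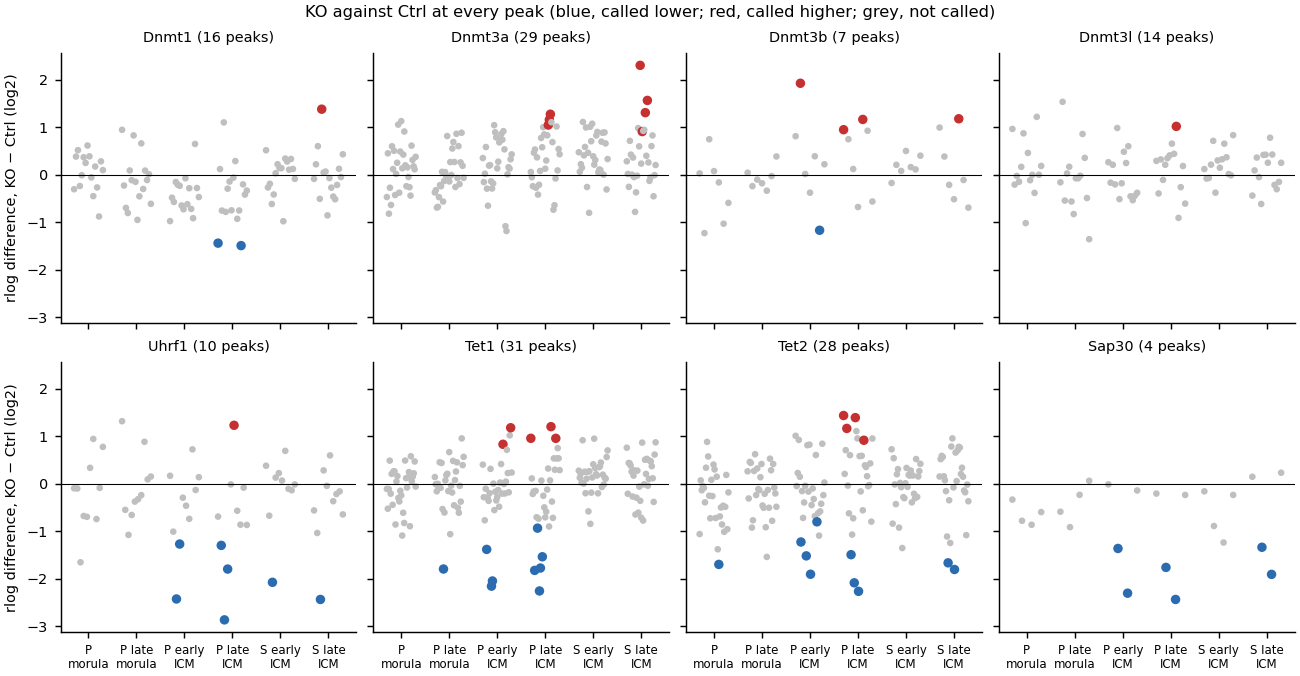
Difference in rlog between KO and Ctrl (y axis, log2 scale) at every peak of the 8 genes, for the 6 comparisons (x axis; P, *Pou5f1* line; S, *Sox2* line). Each point is 1 peak, ordered by position, and called peaks are blue (lower) or red (higher). In late ICM the called points of *Dnmt3a*, *Dnmt3b* and *Dnmt3l* lie above 0 and those of *Sap30* below it.

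Fits that left out 1 library at a time kept 29 of the 58 calls of KO against Ctrl in every such fit. The calls kept numbered 16 of 29 in *Pou5f1*-KO late ICM, 7 of 15 in *Pou5f1*-KO early ICM, 5 of 11 in *Sox2*-KO late ICM, and the single call in *Sox2*-KO early ICM. Beside each peak below it is said whether its call held in all these fits.

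Maintenance of methylation is considered first. *Uhrf1* (ENSMUSG00000001228) occupies the plus strand of chromosome 17 between 56303321 and 56323486. Its −2.47 kb peak, upstream of the gene, lost most of its signal in both knockouts and was the only one of the 139 called in all 4 ICM comparisons. In late ICM its rlog was 4.31, 2.90, 3.84 and 3.99 in *Pou5f1* Ctrl and 0.943, 1.08, 0.384 and 1.15 in *Pou5f1*-KO. Every Ctrl library was above every KO library, and the difference was −2.87 (standard error 0.446, adjusted p = 3.1e-07, limma). In *Sox2* late ICM the 4 Ctrl libraries had 3.96, 3.61, 4.10 and 3.94 and the KO libraries 1.64, 1.63, 0.467 and 2.12. The groups again did not overlap, with a difference of −2.44 (adjusted p = 2.49e-05). In early ICM the peak lay between 3.10 and 4.06 in *Pou5f1* Ctrl and between 0.573 and 1.88 in KO (difference −2.43, adjusted p = 3.2e-05). In *Sox2* early ICM it lay between 2.81 and 3.67 in Ctrl and between 0.363 and 1.71 in KO (difference −2.08, adjusted p = 0.00127). All 4 calls held without any 1 library. In *Pou5f1*-KO morulae the libraries had 3.51, 1.05 and 0.487 against 3.85, 3.30 and 2.86 in Ctrl, a difference of −1.66 that was not called. In late morulae they had 0.663, 0.361 and 0.568 against 1.29, 1.52 and 2.01, a difference of −1.08, also not called.

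The start site of *Uhrf1* behaved differently from the peak upstream of it. Its −0.048 kb peak was lower in *Pou5f1*-KO and not called in *Sox2*-KO. In late ICM it had 4.92, 5.13, 5.70 and 4.36 in *Pou5f1* Ctrl and 2.09, 3.46, 3.61 and 3.76 in KO, with no overlap (difference −1.80, adjusted p = 0.00027), and the call held without any 1 library. In early ICM the difference was −1.27 (adjusted p = 0.0245). That call was lost without Ctrl replicate 2 or 3 or KO replicate 3 or 4 (adjusted p up to 0.107). In *Sox2* late ICM the Ctrl libraries had 4.64, 4.73, 4.98 and 2.58 and the KO libraries 4.47, 4.29, 4.78 and 4.51, so that 1 Ctrl library stood far below the rest. The difference was 0.28 there and 0.13 in early ICM. Its sign in late ICM rests on that Ctrl library, without which the Ctrl mean lies above that of KO. The effects of the 2 knockouts differed by −2.08 in late ICM (standard error 0.552, adjusted p = 0.0368), and this was lost in 8 of 16 fits without 1 library, with an adjusted p up to 0.199. The libraries whose omission lost it were KO replicate 1 and Ctrl replicates 2 and 3 of the *Pou5f1* line and Ctrl replicate 4 and all 4 KO replicates of the *Sox2* line. Effects in late ICM differed between the knockouts at 0.554% (lower) and 0.351% (higher) of all peaks, and at 2 and 0 of the 139.

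Other *Uhrf1* peaks moved less. The −4.40 kb peak, which also overlaps the record of *Arrdc5*, was lower in *Pou5f1*-KO late ICM (−1.30, adjusted p = 0.028). There the +2.25 kb intron peak was higher (1.23, adjusted p = 0.0353). The former was lost without KO replicate 1, 3 or 4 or Ctrl replicate 3, the latter without KO replicate 2 or 4 or Ctrl replicate 2, 3 or 4. In *Sox2*-KO late ICM they differed by −1.04 and 0.60, not called. The most open *Uhrf1* peak, at +22.5 kb beyond the 3′ end, had group means between 6.25 and 7.22 and KO differences between −0.16 and 0.09.

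*Dnmt1* (ENSMUSG00000004099, minus strand of chromosome 9, 20907209 to 20959888) is the maintenance methyltransferase itself. Of its 16 peaks, 2 (12.5%) were lower in *Pou5f1*-KO late ICM, against 10.1% of all peaks, and 1 (6.25%) was higher in *Sox2*-KO late ICM, against 2.71%. The peak nearest to the 5′ end of the record, at −3.43 kb and within *S1pr2*, had 1.94, 3.32, 2.53 and 2.52 in *Pou5f1* Ctrl late ICM and 0.845, 1.95, 1.15 and 0.590 in KO. These overlapped in a single pair of libraries, and the difference was −1.44 (adjusted p = 0.0265). The +46.4 kb intron peak was lower by −1.49 (adjusted p = 0.0148). The former call was lost without KO replicate 1 or 4 or Ctrl replicate 2, the latter without KO replicate 1 or Ctrl replicate 3 or 4. In *Sox2*-KO late ICM the +16.3 kb intron peak was higher by 1.38 (adjusted p = 0.0314), which was lost without Ctrl replicate 1, 3 or 4 or KO replicate 1 or 3. The most open peak, at an internal start site 7.07 kb into the gene, had group means between 2.69 and 4.39 and KO differences between −0.48 and 0.38, none called.

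**Figure D2:**
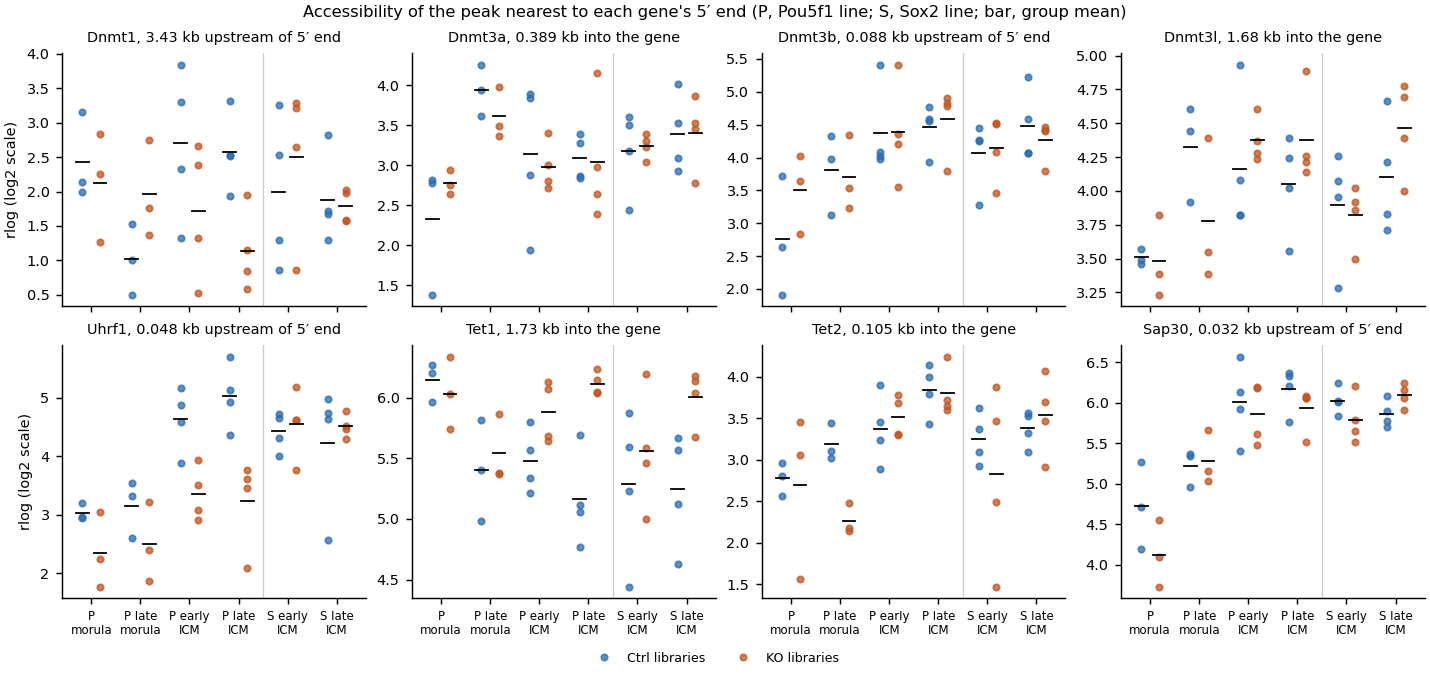
Accessibility (y axis, rlog, log2 scale) of the peak nearest to the 5′ end of each of the 8 genes in all 12 groups (x axis). Points are libraries, blue for Ctrl and orange for KO, and bars are group means. At *Uhrf1* the *Pou5f1*-KO late ICM libraries (2.09 to 3.76) lie below their Ctrl (4.36 to 5.70), and at *Sap30* the KO and Ctrl libraries overlap in every comparison.

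Of the 50 peaks at the genes for new methylation, *Dnmt3a*, *Dnmt3b* and *Dnmt3l*, 6 (12%) were higher in *Pou5f1*-KO late ICM, against 8.19% of all peaks, and 5 (10%) in *Sox2*-KO late ICM, against 2.71%. Without 1 library the *Pou5f1*-KO count was 2 to 5, with 2 without Ctrl replicate 4 or KO replicate 3 and 3 without Ctrl replicate 1 or 3 or KO replicate 4. The *Sox2*-KO count was 3 to 6, with 3 without Ctrl replicate 1 or KO replicate 3. None was called lower at that stage, against 10.1% and 4.88% of all peaks, and no test of the group was made. Of the rises, 3 in *Pou5f1*-KO and 4 in *Sox2*-KO lay at *Dnmt3a* between +60.9 and +75.8 kb. Such neighbouring peaks are not independent. In *Pou5f1*-KO early ICM 1 was higher and 1 lower, both at *Dnmt3b*, against 2.753% and 5.43%. *Dnmt3a* (ENSMUSG00000020661) occupies the plus strand of chromosome 12 between 3806007 and 3914443. Its 6 peaks called in a knockout lay between +60.9 and +75.8 kb, while the peak nearest to its 5′ end, at +0.389 kb, differed by −0.05 in *Pou5f1*-KO and 0.015 in *Sox2*-KO late ICM. The +72.4 kb intron peak was called in both knockouts. In *Pou5f1* late ICM it had 2.73, 2.32, 3.37 and 2.49 in Ctrl and 3.42, 4.25, 4.28 and 3.57 in KO (difference 1.16, adjusted p = 0.0133). The *Sox2* line had in late ICM 3.09, 2.99, 3.67 and 2.31 in Ctrl and 4.48, 4.52, 3.83 and 4.44 in KO (difference 1.31, adjusted p = 0.00926). No KO library lay below a Ctrl library in either line. The *Pou5f1* call was lost without Ctrl replicate 2 or KO replicate 2 or 3 (adjusted p up to 0.0587) and the *Sox2* call without Ctrl replicate 4 (adjusted p = 0.0749).

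The +60.9 kb peak, in an exon of a non-coding transcript of *Dnmt3a*, had the largest rise of any of the 139 in *Sox2*-KO late ICM. Its Ctrl libraries had 1.62, 2.77, 3.62 and 1.99 and its KO libraries 4.51, 5.16, 4.62 and 4.92 (difference 2.30, adjusted p = 6.34e-05), with no overlap and the call held without any 1 library. In *Pou5f1*-KO late ICM it differed by 0.85 and was not called. In early ICM its Ctrl level was lower in the *Pou5f1* than in the *Sox2* line by −1.60 (adjusted p = 0.0484), a call lost without *Pou5f1* replicate 2, 3 or 4 or *Sox2* replicate 1, 2 or 3 (adjusted p up to 0.18). The +71.7 and +75.2 kb peaks were called higher in *Pou5f1*-KO late ICM (1.04, adjusted p = 0.0346, and 1.27, adjusted p = 0.035) and the +70.3 and +75.8 kb peaks in *Sox2*-KO late ICM (0.91, adjusted p = 0.0278, and 1.56, adjusted p = 0.012). Of these 4 calls that at +75.8 kb was lost without Ctrl replicate 3 alone (adjusted p = 0.0753), that at +71.7 kb without Ctrl replicate 1, 3 or 4 or KO replicate 3 or 4, and that at +75.2 kb in all fits but those without Ctrl replicate 1 or KO replicate 3. That at +70.3 kb was lost without Ctrl replicate 1 or 4 or KO replicate 1, 2 or 3. The +70.3 kb peak was the most open of the gene, with group means between 4.83 and 5.86.

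*Dnmt3b* (ENSMUSG00000027478, plus strand of chromosome 2, 153649450 to 153687730) showed the same direction at its most open peak, in an intron at +7.73 kb. In *Pou5f1* late ICM it had 3.85, 3.28, 4.005 and 3.88 in Ctrl and 4.85, 5.03, 5.00 and 4.78 in KO. The groups did not overlap, with a difference of 1.16 (adjusted p = 0.00834), which held without any 1 library. For the *Sox2* line it had in late ICM 3.27, 2.89, 4.29 and 4.17 in Ctrl and 4.80, 4.57, 5.02 and 4.94 in KO, again apart, with a difference of 1.18 (adjusted p = 0.0152). That call was lost without Ctrl replicate 1 or 2 or KO replicate 3 (adjusted p up to 0.123). The −9.64 kb peak rose in *Pou5f1*-KO late ICM (0.95, adjusted p = 0.0406), lost in 7 of 8 fits, all but that without KO replicate 4, and differed by 0.99 in *Sox2*-KO late ICM, not called. In *Pou5f1*-KO early ICM the −9.18 kb peak was higher by 1.93 (adjusted p = 0.00233), held without any 1 library, and the +11.4 kb peak was lower by −1.17 (adjusted p = 0.0488), lost in all fits but those without KO replicate 1 or 3. In late ICM the +11.4 kb peak had group means of 2.41 in *Pou5f1* Ctrl and 3.34 in KO, the other direction, and was not called. The start site peak at −0.088 kb, which overlaps the antisense record *Dnmt3bos*, differed by at most 0.75 in the 6 comparisons, none called.

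*Dnmt3l* (ENSMUSG00000000730, plus strand of chromosome 10, 78041947 to 78063622) had 1 call. Its +14.7 kb peak, in an untranslated region, was higher in *Pou5f1*-KO late ICM, between 3.74 and 4.24 against 2.67 and 3.29 in Ctrl (difference 1.02, adjusted p = 0.0298). The call was lost without Ctrl replicate 1 or 4 or KO replicate 3 or 4. The +6.39 kb peak, the most open of the gene and the closest of all to the composite word, had KO differences between −0.20 and 0.21. The peak nearest to the 5′ end, at +1.68 kb, also overlaps the record of *Aire* and differed between −0.55 and 0.36.

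**Figure D3:**
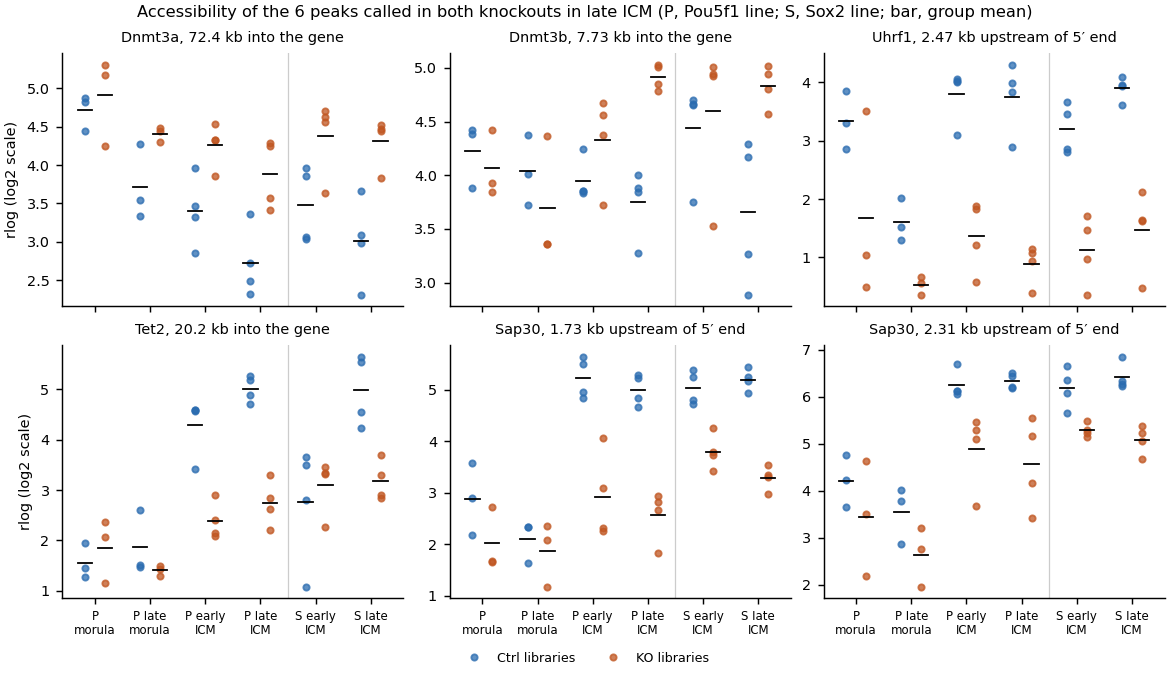
Accessibility (y axis, rlog, log2 scale) of the 6 peaks shared by the late ICM calls of both lines, over all 12 groups (x axis). Points are libraries, blue for Ctrl and orange for KO, and bars are group means. Those of *Uhrf1*, *Tet2* and *Sap30* are higher in Ctrl than in KO late ICM, and those of *Dnmt3a* and *Dnmt3b* are higher in KO late ICM.

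The Tet dioxygenase genes carried calls in both directions. *Tet1* (ENSMUSG00000047146) occupies the minus strand of chromosome 10 between 62804570 and 62908996. All 5 peaks that fell in *Pou5f1*-KO late ICM lay between +9.79 and +22.8 kb, and the 3 that rose lay outside that stretch. The +13.3 kb intron peak had 4.48, 4.54, 4.35 and 4.52 in *Pou5f1* Ctrl late ICM and 2.47, 3.24, 1.87 and 1.28 in KO. Every KO library was below every Ctrl library (difference −2.26, adjusted p = 2.88e-06). In early ICM it had 4.31, 4.46, 4.06 and 4.20 in Ctrl and 3.16, 1.34, 1.89 and 2.00 in KO (difference −2.16, adjusted p = 1.75e-05). Both calls held without any 1 library. It was already lower in *Pou5f1*-KO late morulae, with 2.92, 3.56 and 3.06 against 4.82, 5.14 and 4.98 (difference −1.80, adjusted p = 0.0232), and this was the only call among the 139 at that stage, against 0.539% lower and 0.108% higher of all peaks. That call was lost in 5 of 6 fits, all but that without KO replicate 2 (adjusted p up to 0.132). With the replicate number as a block 2 peaks were called there. In *Sox2* early ICM the +13.3 kb peak had 3.08, 4.02, 4.69 and 5.08 in Ctrl and 3.67, 5.50, 4.05 and 4.64 in KO, with a difference of 0.25. The effects of the 2 knockouts differed in early ICM by −2.41 (standard error 0.544, adjusted p = 0.0112), lost without *Sox2*-KO replicate 2 (adjusted p = 0.0549). In *Sox2* late ICM the difference was −0.65, not called.

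The +9.79 kb peak of *Tet1*, at an internal start site, fell in *Pou5f1*-KO and not in *Sox2*-KO. It had 4.25, 5.16, 4.63 and 5.19 in *Pou5f1* Ctrl late ICM and 2.76, 2.96, 2.749 and 3.46 in KO (difference −1.83, adjusted p = 0.000137), which held without any 1 library. In *Sox2* late ICM it had 3.96, 4.55, 4.90 and 4.21 in Ctrl and 4.70, 4.65, 5.03 and 4.77 in KO (difference 0.38, not called). The effects of the 2 knockouts differed by −2.21 in late ICM (adjusted p = 0.0178) and by −2.30 in early ICM (adjusted p = 0.0152). The former was lost without *Pou5f1* Ctrl replicate 4 or *Sox2* Ctrl replicate 1 (adjusted p up to 0.0575). The latter was lost without *Pou5f1*-KO replicate 1, *Sox2*-KO replicate 1 or *Sox2* Ctrl replicate 2 (adjusted p up to 0.0786). In early ICM its *Pou5f1*-KO difference was −1.38 (adjusted p = 0.00936), lost without KO replicate 1 (adjusted p = 0.158). Differences between the knockouts' effects in early ICM passed at 0.372% (lower) and 0.308% (higher) of all peaks, and at 3 and 0 of the 139.

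The +16.1 kb peak, at another internal start site of *Tet1*, was lower in *Pou5f1*-KO early ICM by −2.05 (adjusted p = 0.000203) and late ICM by −1.78 (adjusted p = 0.000802). The +22.8 kb peak was lower in late ICM by −1.54 (adjusted p = 0.000552) and the +11.9 kb peak by −0.94 (adjusted p = 0.0153). The first 3 of these calls held without any 1 library, and that at +11.9 kb was lost without Ctrl replicate 2 or 4 or KO replicate 4. In *Sox2*-KO late ICM the same peaks differed by −0.29, −0.61 and 0.17, not called. Rises in *Pou5f1*-KO late ICM were found at +1.73 kb (0.96, adjusted p = 0.00408), the peak nearest to the 5′ end, at +53.8 kb (1.20, adjusted p = 5.52e-06), the most open peak of the gene, and at +65.0 kb (0.95, adjusted p = 0.0424). The first pair held without any 1 library, and the last was lost without Ctrl replicate 1 or 2 or KO replicate 3 or 4. At +53.8 kb the *Pou5f1* late ICM libraries had 5.198, 4.55, 5.28 and 5.80 in Ctrl and 6.12, 6.54, 6.59 and 6.39 in KO. This peak was also higher in *Pou5f1*-KO early ICM (0.83, adjusted p = 0.00428, held without any 1 library), as was that at +112 kb, downstream of the gene (1.18, adjusted p = 0.0416, lost without Ctrl replicate 1, 2 or 3 or KO replicate 3 or 4). At +53.8 kb the Ctrl level in late ICM was lower in the *Pou5f1* line than in the *Sox2* line by −0.86 (adjusted p = 0.0156), a call lost without *Pou5f1* Ctrl replicate 2 or *Sox2* Ctrl replicate 1 or 2.

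*Tet2* (ENSMUSG00000040943) occupies the minus strand of chromosome 3 between 133463679 and 133545139. Its +20.2 kb intron peak was lower in KO than in Ctrl in late ICM of both lines. The *Pou5f1* line had 5.27, 5.19, 4.71 and 4.89 in Ctrl late ICM and 2.20, 2.63, 2.85 and 3.31 in KO (difference −2.27, adjusted p = 1.67e-05). The *Sox2* line had 5.65, 5.54, 4.56 and 4.23 in Ctrl and 3.30, 2.91, 3.70 and 2.84 in KO (difference −1.81, adjusted p = 0.00141). Neither pair of groups overlapped, and both calls held without any 1 library. In early ICM the peak was called in the *Pou5f1* line only. The *Pou5f1* libraries had 3.43, 4.59, 4.56 and 4.59 in Ctrl and 2.15, 2.40, 2.91 and 2.09 in KO (difference −1.91, adjusted p = 0.000693, held without any 1 library). The *Sox2* libraries had 3.498, 2.81, 1.08 and 3.66 in Ctrl and 3.32, 2.26, 3.34 and 3.45 in KO (difference 0.33). The sign of this difference rests on the Ctrl library at 1.08, without which the Ctrl mean lies above that of KO. The effects differed by −2.24 (adjusted p = 0.0431), lost in 11 of 16 fits without 1 library, namely all but those without Ctrl replicate 1 or KO replicate 3 of the *Pou5f1* line or Ctrl replicate 1 or 4 or KO replicate 2 of the *Sox2* line (adjusted p up to 0.183). The Ctrl groups of the lines differed as well at that stage, by 1.53 (adjusted p = 0.0465), lost without *Pou5f1* replicate 2, 3 or 4 or *Sox2* replicate 2 or 3 (adjusted p up to 0.34).

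Other *Tet2* peaks between +6.75 and +12.2 kb were also lower in KO than in Ctrl. The +12.2 kb peak fell in *Pou5f1*-KO late ICM (−2.09, adjusted p = 0.000241) and early ICM (−1.52, adjusted p = 0.0183), and the +6.75 kb peak in late ICM by −1.49 (adjusted p = 0.0069). Both late calls held without any 1 library, and the early call was lost without Ctrl replicate 1, 3 or 4 or KO replicate 2 or 3. The +10.9 kb peak fell in *Sox2*-KO late ICM (−1.67, adjusted p = 0.0128), lost without Ctrl replicate 1 or KO replicate 4, and differed by −1.07 in *Pou5f1*-KO late ICM, not called. Rises in *Pou5f1*-KO late ICM were seen at +17.1 kb (1.39, adjusted p = 0.00117) and at −4.77 kb (1.16, adjusted p = 0.00507), both held without any 1 library. At −9.41 kb (1.44, adjusted p = 0.0167) and +36.1 kb (0.92, adjusted p = 0.0317) the rises were not held, the former being lost without Ctrl replicate 4 or KO replicate 1 or 4 and the latter without Ctrl replicate 2, 3 or 4 or KO replicate 3 or 4. In *Pou5f1*-KO early ICM the +0.791 kb start site peak (−1.23, adjusted p = 0.0168) and the +38.4 kb peak (−0.80, adjusted p = 0.0285), the most open of the gene, were lower. The former was lost without Ctrl replicate 4 or KO replicate 3, the latter without Ctrl replicate 1, 2 or 4 or KO replicate 1 or 2. The +31.5 kb peak was the only call in *Pou5f1*-KO morulae, with 2.73 to 3.26 against 4.129 to 5.197 in Ctrl (difference −1.70, adjusted p = 0.0447), lost without Ctrl replicate 1 or 3 or KO replicate 2 or 3. At that stage 0.185% of all peaks were lower and 0.0518% higher. The peak nearest to the 5′ end, at +0.105 kb, had differences between −0.93 and 0.16, none called. This peak and those at −4.77 and −9.41 kb also overlap the record *Gm42567*.

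**Figure D4:**
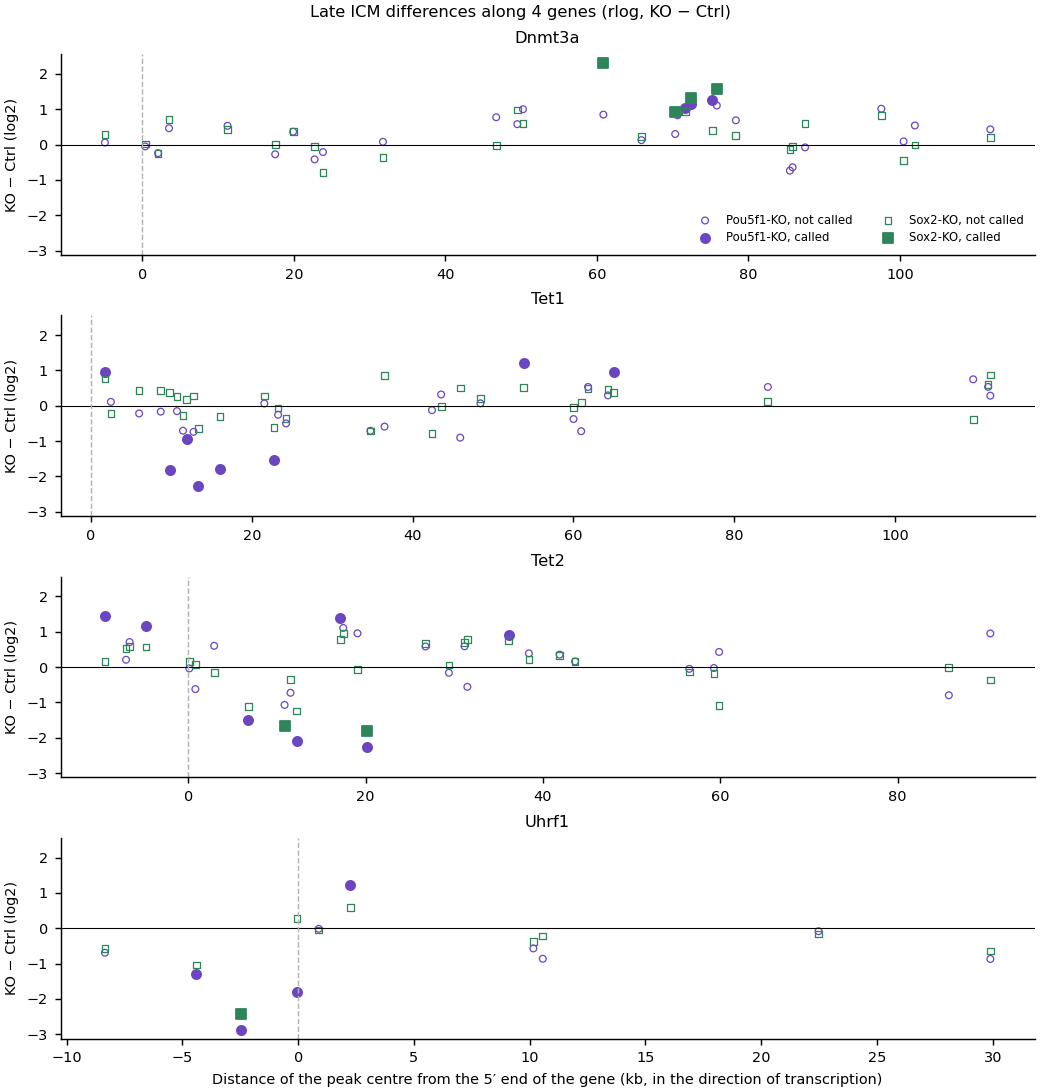
Late ICM difference between KO and Ctrl (y axis, rlog, log2 scale) against the distance of the peak centre from the 5′ end of the gene (x axis, kb) for *Dnmt3a*, *Tet1*, *Tet2* and *Uhrf1*. Circles are *Pou5f1*-KO, squares *Sox2*-KO, filled where called. At *Tet1* the 5 filled circles below 0 lie between +9.79 and +22.8 kb, and at *Dnmt3a* the filled symbols lie between +60.9 and +75.8 kb.

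*Sap30* (ENSMUSG00000031609, minus strand of chromosome 8, 57482707 to 57487860) had both of its called peaks upstream of its start site, and both were lower in both knockouts in late ICM. The 3 upstream peaks also overlap the record *2500002B13Rik*. The −1.73 kb peak had 4.84, 4.67, 5.28 and 5.22 in *Pou5f1* Ctrl late ICM and 2.94, 1.84, 2.82 and 2.66 in KO (difference −2.44, standard error 0.376, adjusted p = 2.55e-07). The late ICM of the *Sox2* line had 4.93, 5.24, 5.44 and 5.16 in Ctrl and 3.53, 3.34, 3.30 and 2.97 in KO (difference −1.91, adjusted p = 0.000105). No KO library reached a Ctrl library, and both calls held without any 1 library. In *Pou5f1* early ICM it had 4.83, 5.50, 4.95 and 5.64 in Ctrl and 2.31, 3.09, 4.05 and 2.25 in KO (difference −2.31, adjusted p = 2.41e-06, held). In *Sox2* early ICM it had 5.26, 4.72, 4.80 and 5.38 in Ctrl and 3.42, 4.26, 3.79 and 3.73 in KO. Those groups were apart too, but the difference of −1.24 was not called (adjusted p = 0.0571, limma). It was called with the replicate number as a block, for which the pairing of these libraries is only a hint.

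The −2.31 kb peak of *Sap30* followed the same course at a higher level. In *Pou5f1* late ICM it had 6.52, 6.19, 6.20 and 6.44 in Ctrl and 3.42, 5.55, 4.16 and 5.17 in KO (difference −1.76, adjusted p = 3.07e-05). In late ICM of the *Sox2* line it had 6.28, 6.22, 6.85 and 6.35 in Ctrl and 5.24, 5.06, 5.38 and 4.67 in KO (difference −1.34, adjusted p = 0.00379). Both calls held without any 1 library, and the groups did not overlap. In *Pou5f1* early ICM the difference was −1.36 (adjusted p = 0.00308), lost without KO replicate 1 (adjusted p = 0.074), and in *Sox2* early ICM it was −0.89, not called. The start site peak at −0.032 kb was the most open of the gene and was not called in any of the 6 comparisons. It had 6.38, 5.76, 6.33 and 6.21 in *Pou5f1* Ctrl late ICM and 6.09, 6.06, 6.06 and 5.52 in KO (difference −0.24), and a difference of 0.23 in *Sox2*-KO late ICM. *Uhrf1* and *Sap30* were named by the study on these same samples, so their falls are no independent evidence.

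The 6 peaks with a late ICM call in each line had the same direction in both lines. They are 20.7% of the 29 called in *Pou5f1*-KO and 54.5% of the 11 called in *Sox2*-KO. Over all peaks those shares were 24.3% and 58.6%, near those of the 139, which rest on 6 peaks. Across the 139 peaks the late ICM differences of the 2 knockouts had a Pearson r of 0.632, and across all peaks one of 0.543, given as a description, since neighbouring peaks share libraries and are not independent. Of the 15 calls in *Pou5f1*-KO early ICM, 10 (66.7%) were also called in late ICM in the same direction, against 68.1% of the early ICM calls over all peaks. Both comparisons are within the *Pou5f1* line. No peak of the 139 was called for a difference of its *Pou5f1*-KO effect between early and late ICM. There limma called 0% of all peaks in either direction, so the test could not separate the stages at any peak. Among the 139, 2 lower and 5 higher had an unadjusted p under 0.05. None was called for the *Sox2*-KO effect between early and late ICM (0.0164% and 0.00262% of all peaks, 4 lower and 7 higher unadjusted). For the *Pou5f1*-KO effect between late morula and early ICM, stages at which same-numbered Ctrl and KO libraries deviated together, none was called either (0.291% and 0.0551% of all peaks, 12 lower and 3 higher unadjusted). With the replicate number as a block 1 was lower there, the *Sap30* −1.73 kb peak (−2.07, adjusted p = 0.0332, limma), and 1 was lower without early ICM KO replicate 3.

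Stage changes in Ctrl embryos were largest between late morula and early ICM, where 29 of the 139 peaks were lower and 25 higher in early ICM of the *Pou5f1* line, against 15% and 14.7% of all peaks. This step compares whole embryos with ICMs freed of trophectoderm, and tissue, culture and stage cannot be told apart in it. The epiblast list lay between 2.40 and 2.76 in late morulae and between 3.48 and 3.696 in early ICM (1 peak lower and 26 higher), and the primitive endoderm list between 2.43 and 2.72 and then between 2.95 and 3.253 (2 lower and 9 higher). The trophectoderm list lay between 3.544 and 3.628 and then between 3.329 and 3.545 (19 lower and 10 higher). Their part in the values of this step was not tested. These Ctrl early ICM libraries are the same as in the comparison with KO, so both sets of values are given side by side and no relation between them is drawn. The *Sap30* −1.73 kb peak rose from 1.64, 2.34 and 2.33 in late morulae to between 4.83 and 5.64 in early ICM (3.125, adjusted p = 3e-09), the −2.31 kb peak by 2.69 (adjusted p = 8.26e-09) and the start site peak by 0.79 (adjusted p = 0.0188). The −7.27 kb peak fell by 2.00 (adjusted p = 0.000889). The *Uhrf1* −2.47 kb peak rose by 2.19 (adjusted p = 0.00025), its start site by 1.47 (adjusted p = 0.00487), and no *Uhrf1* peak was called lower. *Tet2* had 10 peaks lower and 3 higher, with the largest rise at +20.2 kb (2.42, adjusted p = 1.86e-05) and the largest falls at −9.41 kb (−2.98, adjusted p = 1.61e-06) and +59.9 kb (−2.73, adjusted p = 1.09e-06). *Tet1* had 4 lower and 8 higher. Its +5.98 kb peak rose by 2.55 (adjusted p = 6.3e-09), from 1.91, 3.72 and 3.85 to between 5.40 and 5.99, and its KO differences lay between −0.77 and 0.44, none called. All of these calls held without any 1 library except those of the start sites. That of *Sap30* was lost without late morula replicate 3 or early ICM replicate 4 and that of *Uhrf1* without late morula replicate 2. The largest called *Tet1* fall over this step was by 1.715, at +112 kb, downstream of the gene.

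*Dnmt3a* lost accessibility over the same step at 8 peaks and gained it at 2. The largest fall was at +22.8 kb (−2.121, adjusted p = 0.000124) and the largest rise at +85.8 kb, an internal start site (1.99, adjusted p = 0.0017), and both held. *Dnmt1* had 4 peaks lower, led by that at +18.9 kb (−1.87), and 3 higher, led by that at −3.43 kb (1.69, adjusted p = 0.0103). *Dnmt3l* had 1 lower, at +14.7 kb (−1.20, adjusted p = 0.0108), and 3 higher, led by that at +27.3 kb (1.37, adjusted p = 0.00696), which also lies in the record of *Icosl*, a costimulatory ligand gene. *Dnmt3b* had 1 lower, at −9.18 kb (−1.67, adjusted p = 0.00718). The calls at *Dnmt1* +18.9 kb and *Dnmt3b* held without any 1 library. Those at *Dnmt1* −3.43 kb (late morula or early ICM replicate 2), *Dnmt3l* +14.7 kb (late morula replicate 1 or early ICM replicate 4) and *Dnmt3l* +27.3 kb (late morula replicate 3) were lost without the libraries given.

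Between morula and late morula 4 of the 139 peaks were lower and 3 higher, against 2.79% and 3.65% of all peaks. The trophectoderm list lay between 3.11 and 3.22 in morulae and between 3.54 and 3.63 in late morulae (0 peaks lower and 7 higher), while the other 2 lists overlapped, and its part in these values was not tested. The largest change was at the *Uhrf1* −8.35 kb peak, within *Arrdc5*, which fell from 5.13, 4.17 and 4.34 to 1.06, 2.55 and 1.21 (−2.94, adjusted p = 9.46e-05). The *Uhrf1* −2.47 kb peak fell by 1.73 (adjusted p = 0.0255), so that among Ctrl groups it was lowest in late morulae. The *Dnmt3l* −8.39 kb peak fell by 2.28 (adjusted p = 0.000888) and the *Dnmt3a* −4.92 kb peak by 1.56 (adjusted p = 0.0208). Rises were called at the *Dnmt3a* +0.389 kb peak (1.61, adjusted p = 0.0202), the *Dnmt1* +15.9 kb peak (1.88, adjusted p = 0.0121) and the *Dnmt3l* +7.93 kb peak (1.20, adjusted p = 0.0403). Only the falls at *Uhrf1* −8.35 kb and *Dnmt3l* −8.39 kb held without any 1 library. The other 5 were each lost without late morula replicate 1 and 1 to 3 other libraries. From early to late ICM no peak was called in *Pou5f1* Ctrl (limma, with 6 lower and 3 higher at an unadjusted p under 0.05), where 0.18% and 0.0787% of all peaks were. In *Sox2* Ctrl none was lower and 2 were higher, the *Tet2* +20.2 kb peak by 2.23 (adjusted p = 0.00162) and the *Tet2* +59.9 kb peak by 1.69 (adjusted p = 0.0249), against 0.121% and 0.474% of all peaks. Over the same step the epiblast list lay between 3.21 and 3.52 and then between 3.749 and 4.001, with none of its peaks called, and its part was not tested. The former was lost without early ICM replicate 3 (adjusted p = 0.0503), the latter without early ICM replicate 1, 2 or 3 or late ICM replicate 1 or 2. Between the Ctrl groups of the lines, 1 peak was lower and 1 higher in early ICM (0.354% and 0.545% of all peaks). In late ICM 1 was lower and 0 higher (0.763% and 0.667%). These are the *Dnmt3a*, *Tet2* and *Tet1* peaks named above. With the replicate number as a block 5 were lower and 1 higher in late ICM. Same-numbered Ctrl libraries of the lines had correlations of 0.027 to 0.102 there. The primitive endoderm list in late ICM was the only one of the 3 without overlap between the Ctrl groups, 2.762 to 3.05 in the *Pou5f1* line and 3.06 to 3.19 in the *Sox2* line, with none of its peaks called.

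The mean over all peaks of a gene described each locus as a whole, without a test. *Sap30* spanned the widest range of group means, 1.72, from 3.20 in *Pou5f1*-KO morula to 4.92 in *Sox2* Ctrl early ICM. In late ICM its mean was 4.88 in *Pou5f1* Ctrl, 3.71 in *Pou5f1*-KO, 4.82 in *Sox2* Ctrl and 4.10 in *Sox2*-KO. *Uhrf1* ranged over 0.783 and was highest in *Pou5f1* Ctrl late ICM (3.30) and lowest in *Pou5f1*-KO late ICM (2.51). *Dnmt3a* was highest in *Pou5f1*-KO morula (2.79) and lowest in *Pou5f1* Ctrl late ICM (2.00). *Dnmt1* (0.471), *Dnmt3l* (0.528), *Tet1* (0.58), *Tet2* (0.684) and *Dnmt3b* (0.881) spanned less than *Sap30* as well. When the 12 groups were ordered by this mean, no neighbours in the order were apart at any gene, since the ranges of their libraries overlapped in all 11 pairs.

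**Figure D5:**
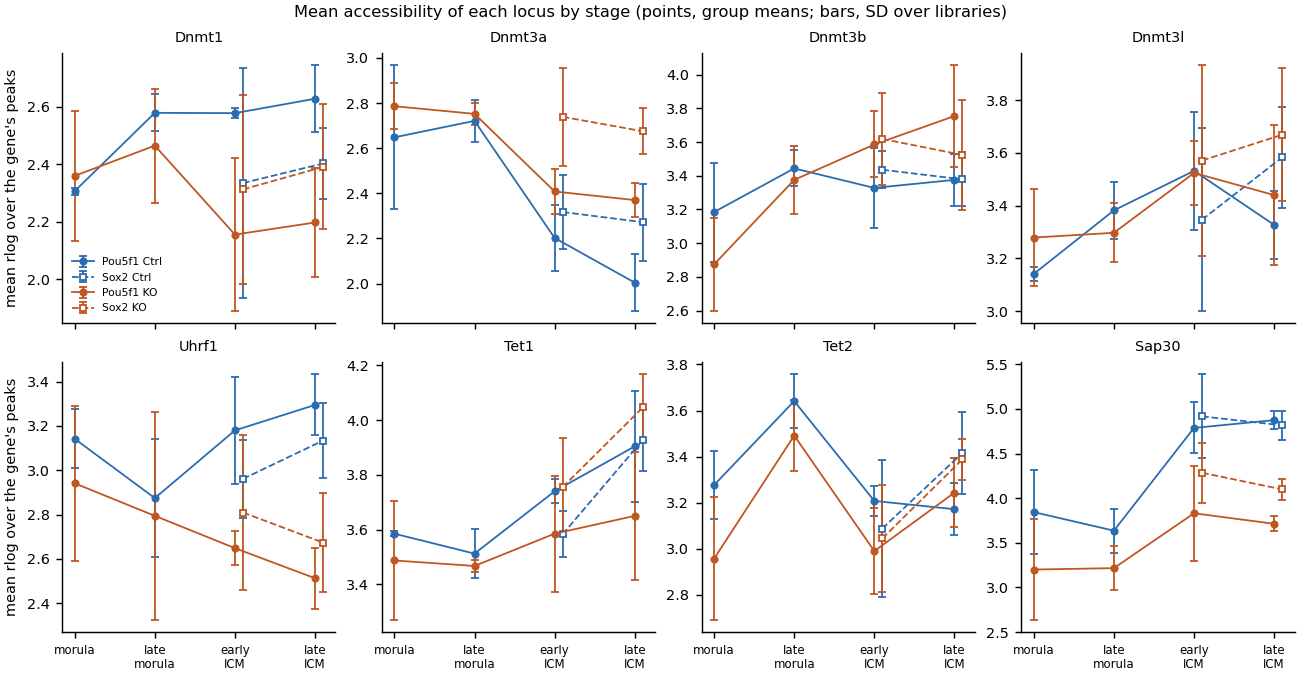
Mean rlog over all peaks of each gene (y axis, log2 scale) by stage (x axis). Points are group means and bars the SD over libraries, with filled circles for the *Pou5f1* line, open squares for the *Sox2* line, blue for Ctrl and orange for KO. At *Sap30* both KO lines lie below their Ctrl in ICM, and at *Dnmt3a* they lie above it.

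Genes with a like course of this mean over the 12 groups were sought among 15196 to 15199 genes with peaks, by Pearson r. The closest to *Sap30* were *C9orf72* (0.986), *Pdzph1* (0.978) and *Efr3a* (0.972). The closest to *Uhrf1* were *1700061G19Rik* (0.945), *Dppa3* (0.94) and *Tbc1d25* (0.939), and *Dppa3* encodes a factor that shields the early genome from DNA demethylation and binds Uhrf1. For *Tet1* they were *Tead4* (0.979), *Cks1b* and *Mcl1*, for *Tet2* *Dnm1l* (0.955), *Setd5* and *Myo1f*, for *Dnmt3a* *2700097O09Rik* (0.944), *Ppp1r3g* and *Itpr2*, for *Dnmt3b* *Shc4* (0.937), *Fmnl2* and *Stxbp2*, for *Dnmt1* *Fbrsl1* (0.916), *Gmfb* and *Traf2*, and for *Dnmt3l* *Csnk2a2* (0.897), *Usp12* and *Nup107*. With 12 points and so many genes, high values of r are found for any pattern.

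Other genes of the same pathways were counted in the same way. Near 19 further genes of DNA methylation lay 173 peaks, of which 44 (25.4%) were lower and 3 (1.73%) higher in *Pou5f1*-KO late ICM, against 10.1% and 8.19% of all peaks, with a median difference of −0.446 against −0.037 over all peaks. In *Pou5f1*-KO early ICM 24 (13.9%) were lower and 2 (1.16%) higher, against 5.43% and 2.753% of all peaks. In *Sox2*-KO late ICM 9 (5.2%) were lower and none higher, a lower share near the 4.88% of all peaks, and in *Sox2*-KO early ICM 5 (2.89%) were lower and none higher, against 1.91% and 0.238%. No test of the list was made. In *Pou5f1*-KO late ICM the leading peaks by adjusted p were a *Dppa3* peak (−3.71, adjusted p = 7.08e-13, and −1.91, adjusted p = 0.000212, in *Sox2*-KO) and a peak of *Zfp57*, which guards imprinted methylation (−2.88, adjusted p = 1.1e-10, and −0.69, adjusted p = 0.261, in *Sox2*-KO). *Usp7*, a deubiquitinase that stabilizes Dnmt1 and Uhrf1, had 13 of 37 peaks lower, *Trim28*, the corepressor of Zfp57, 5 of 16, and *Tet3*, the dioxygenase of the zygote, 5 of 18. Near 18 further Sin3 complex genes lay 181 peaks, of which 16 (8.84%) were lower and 8 (4.42%) higher in *Pou5f1*-KO and 6 (3.31%) and 4 (2.21%) in *Sox2*-KO late ICM. All 4 late ICM shares were below those of all peaks, which were 10.1%, 8.19%, 4.88% and 2.71%. In early ICM 10 (5.52%) were lower and 2 (1.1%) higher in *Pou5f1*-KO, against 5.43% and 2.753%, and 3 (1.66%) lower and 3 (1.66%) higher in *Sox2*-KO, against 1.91% and 0.238%. The leading peaks there were near *Sinhcaf*, a Sin3 subunit (−3.26 and −3.43), and *Hdac1* (−2.52 and −1.94).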

How the data were processed

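ATAC-seq libraries of 44 pools of morulae or ICMs in 12 groups were analysed from the deposited rlog table, in log2 units. The authors trimmed reads with SeqPurge, aligned them to mm10 with Bowtie2, removed duplicates with Picard, shifted reads for the Tn5 cut, called peaks with MACS2 and computed the rlog values with DESeq2 (versions are not given in the sources used here). Read depth per library is unknown, so no counting interval is given. The rlog shrinks differences at weak peaks. Peaks were assigned with GENCODE vM21 on GRCm38, while the authors used another release.

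Differences were tested with limma 3.58.1 (R 4.3.3): 1 mean per group over all 44 libraries, a variance prior with a trend, 32 residual degrees of freedom and Benjamini-Hochberg adjustment over all 152393 peaks in each of 17 comparisons. Samples were grouped by their labels. Nothing says that the pools came from separate matings or days, so p-values measure the spread between these pools. Named peaks were the one nearest to each 5′ end, the most open one, every peak called between KO and Ctrl or between lines, and the largest called rise and fall at each stage step. Genes, lists and rules were chosen with earlier results of these data known. Same-numbered Ctrl and KO libraries deviated together in *Pou5f1* late morulae (correlations 0.109 to 0.192) and early ICM (0.121 to 0.162), from the data and not the labels. The p-values of single peaks came from the fit without this pairing, except where the block is named. The code was tested on simulated data. Tables were handled in Python 3.11.15 with pandas 2.3.3, numpy 2.4.6 and pysam 0.24.0. The authors' table of group means was not used. The alternatives were other normalization, filters, priors, samples, a replicate block and leaving out 1 library.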

Additional observations from a re-analysis of the deposited data

Results flagged for a closer look

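Single libraries far from the other 3 of their group were sought in 112 groups of 4 by Dixon's ratio, which chance alone passes in about 1 of 20 groups. There were 15. At *Dnmt3a* +72.4 kb, *Sox2*-KO early ICM replicate 4 had 3.63 (others 4.56 to 4.71) and *Sox2*-KO late ICM replicate 3 had 3.83 (others 4.44 to 4.52). At *Dnmt3b* +7.73 kb, replicate 4 stood apart in early ICM of *Pou5f1* Ctrl (4.24, others 3.83 to 3.85), *Sox2* Ctrl (3.751, others 4.65 to 4.7) and *Sox2*-KO (3.53, others 4.92 to 5.01). At the start site of *Dnmt3b*, *Pou5f1* Ctrl early ICM replicate 2 had 5.4 (others 3.97 to 4.08), *Pou5f1*-KO late ICM replicate 4 had 3.8 (others 4.79 to 4.9) and *Sox2*-KO late ICM replicate 3 had 3.79 (others 4.4 to 4.47). In *Pou5f1* Ctrl early ICM, replicate 1 was low at *Uhrf1* −2.47 kb (3.1, others 4.01 to 4.06) and *Tet2* +20.2 kb (3.43, others 4.56 to 4.59), and replicate 4 was high at *Sap30* −2.31 kb (6.7, others 6.05 to 6.13). *Sox2*-KO early ICM replicate 2 had 2.26 at *Tet2* +20.2 kb (others 3.32 to 3.45). *Pou5f1*-KO late ICM replicate 4 had 4.88 at *Dnmt3l* +1.68 kb (others 4.14 to 4.26) and 5.52 at the start site of *Sap30* (others 6.06 to 6.09). *Sox2* Ctrl late ICM replicate 4 had 2.58 at the start site of *Uhrf1* (others 4.64 to 4.98).

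The effects of the 2 knockouts differed by limma's test of the difference at 5 places. In early ICM these were *Tet1* +13.3 kb (−2.41), *Tet1* +9.79 kb (−2.30) and *Tet2* +20.2 kb (−2.24). In late ICM they were *Uhrf1* −0.048 kb (−2.08) and *Tet1* +9.79 kb (−2.21). Each is *Pou5f1* effect minus *Sox2* effect, and each of the 5 calls was lost without at least 1 library. With the replicate number as a block, limma also called *Dnmt3a* +85.8 kb in early ICM (−2.07, adjusted p = 0.0438). In late ICM it also called *Dnmt1* +16.3 kb with that block (−2.16, adjusted p = 0.0289).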

How the results depend on the processing

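Counts of the 139 peaks called (lower, higher) moved by at most 1.5 times in 171 of the recomputed counts and by more in 33, and no direction reversed. Among single named peaks 681 of the values under other settings kept their call and 58 lost it. With only the libraries compared, calls were 0 lower in *Pou5f1*-KO morula, 2 lower in late morula, 10 higher in *Sox2*-KO late ICM, 1 higher from early to late ICM in *Sox2* Ctrl, 1 lower for the difference of knockout effects in early ICM, 0 lower and 0 higher between Ctrl lines in early ICM, and 2 lower and 1 higher in late ICM. Without a trend in the variance prior they were 0 lower in *Pou5f1*-KO morula and late morula, 1 higher in early ICM, 1 lower for the effects in late ICM, 0 and 0 between lines in early ICM and 0 lower in late ICM. Quantile normalization gave 2 lower in *Pou5f1*-KO late morula, 2 lower in *Sox2*-KO early ICM, 1 lower for the effects in late ICM and 0 higher between lines in early ICM. Peaks at or above the median rlog of 2.435 (90 of 139) gave 0 lower in *Sox2*-KO early ICM, 1 lower from morula to late morula and 17 lower from late morula to early ICM. A difference of at least 1 left 0 lower between lines in late ICM. The replicate block gave 2 lower in *Pou5f1*-KO late morula, 2 lower in *Sox2*-KO early ICM (with *Sap30* −1.73 kb, adjusted p = 0.0282), 6 higher from morula to late morula, 1 higher from early to late ICM in *Pou5f1* Ctrl and 1 in *Sox2* Ctrl, 1 lower for the *Pou5f1* effect between late morula and early ICM, 0 lower between lines in early ICM, and 5 lower and 1 higher in late ICM. Same-numbered libraries had correlations of 0.048 to 0.153 in *Pou5f1* morulae, 0.017 to 0.164 in late ICM, and 0.086 to 0.293 and −0.025 to 0.09 in *Sox2* early and late ICM. In *Sox2* early ICM 3 of 4 Ctrl and 4 of 4 KO libraries correlated best with their own number, a hint from the data and not the design. The composite word was found in 1 peak with at most 2 mismatches and 14 with at most 4. The cause of these changes was not tested. Leaving out 1 library gave 0 to 2 lower in *Pou5f1*-KO morula, 0 to 1 in late morula, 8 to 10 lower and 2 to 5 higher in early ICM, and 12 to 15 and 7 to 13 in late ICM. It gave 1 to 2 lower in *Sox2*-KO early ICM and 4 to 5 lower and 3 to 7 higher in late ICM, 2 to 4 and 0 to 4 from morula to late morula, 20 to 28 and 17 to 24 from late morula to early ICM, and 0 to 2 higher from early to late ICM in *Sox2* Ctrl. The differences of effects ranged from 1 to 3 lower in early and in late ICM and 0 to 1 for *Pou5f1* between late morula and early ICM. Between lines there were 0 to 1 lower and 0 to 2 higher in early and 0 to 3 lower in late ICM.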
